A study of Mus musculus with 8 samples.

Results

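The genes described here are 42 genes whose products detect, signal or repair DNA double-strand breaks (DSBs), together with the topoisomerases, of the 22380 protein-coding genes in the GENCODE M1 annotation of the mouse genome build mm9. They were chosen by name, and every symbol matched exactly 1 annotated protein-coding gene. For each gene the DSB peak summits within 1 kb of any of its transcription start sites (TSSs) and in the rest of its body were collected, along with the GC content of its promoter, the longest stretch of sequence made only of G and C, and its length. Mouse embryonic stem (ES) cells with both alleles of Chd1 deleted, Chd1Δ/Δ, here Chd1 KO, were compared with control cells that carry 1 deleted and 1 floxed allele, Chd1fl/Δ. The control cells thus share 1 deleted allele with the Chd1 KO cells, and the titles of their samples call them WT. The Chd1 KO cells are an established line. Chd1 is a chromatin remodeler that moves nucleosomes at transcribed genes. In DSB-seq, terminal transferase adds biotinylated nucleotides to broken DNA ends in fixed nuclei, and the labeled fragments are pulled down and sequenced.

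A DSB is first bound by sensors, and kinases of the Atm family then phosphorylate the histone variant H2A.X around the break and the checkpoint kinases that halt the cell cycle. The break is mended by homologous recombination, which copies the sister chromatid, or by end joining, which ligates the ends directly. Topoisomerases cut and reseal DNA to relieve the torsion that transcription and replication create, and an interrupted cycle of the type II enzymes leaves a DSB. The study asked where breaks lie when Chd1 is missing, and the question taken up here is whether the genes that encode the repair machinery carry such breaks themselves.

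The data are 1 list of peaks per genotype, each from 2 replicates that the authors combined before peak calling, with 5671 peaks in Chd1 KO and 54 in control. There is therefore no replicate error, and genotypes are compared without a test. Intervals are 95% intervals and cover counting error only. From the lowest local background in each list, 3.18 reads in Chd1 KO and 2.95 in control, the combined depth was estimated at about 29800000 and 27600000 deduplicated reads, which is a reconstruction and not a count of the reads. The weakest Chd1 KO peak had 13 extended reads at its summit and the weakest control peak 17, so weaker signal lies outside both lists. As the cells were assayed in bulk, breaks in more cells and more frequent breaks per cell cannot be told apart. Chd1 RNA and protein and markers of ES cells are not measured by these lists, so the genotype and cell type labels were not checked.

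Of the 42 repair and checkpoint genes, 5 had a DSB summit within 1 kb of a TSS in Chd1 KO ES cells: Rif1, Wrn, Lig3, Parp1 and Top2b. This is 11.9% of the genes (Wilson interval 5.19% to 25.0%), and among all protein-coding genes the share was 15.9%. The interval includes the share of all genes, so these lists do not set the repair genes apart from other genes. The counts depended on the window. The study defined genes prone to breaks by an extent of 1 kb upstream but only 100 bp downstream of a TSS. With this extent, 2 of the 42 genes (4.76%), Rif1 and Wrn, and 2302 of all protein-coding genes (10.3%) had a summit. The study assigned peaks to genes with the program HOMER, whereas here a summit could count at any GENCODE M1 TSS. These are therefore not the counts of the study. In control cells 0 of the 42 genes had a summit at a TSS (a count of 0 allows up to 7.14%), and among all protein-coding genes the share was 0%. The summits of the 5 genes lay from 4 to 605 bp from the nearest TSS. The next closest summit to any other gene of the group was 14.1 kb from a TSS of Top1, so no gene lay near the limit of 1 kb.

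By role, the peaks were spread over 4 of 7 groups. The MRN complex and the chromatin factors that mark breaks had 1 gene of 9 with a peak, end joining had 2 of 7, the resection nucleases and RecQ helicases 1 of 4, and the topoisomerases with Tdp1 1 of 4. None of the 6 genes for signaling kinases and p53, of the 9 genes for homologous recombination and of the 3 genes for crosslink repair had one. These groups are too small for their shares to be told apart by counting, from each other or from the 15.9% of all protein-coding genes.

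**Figure D1:**
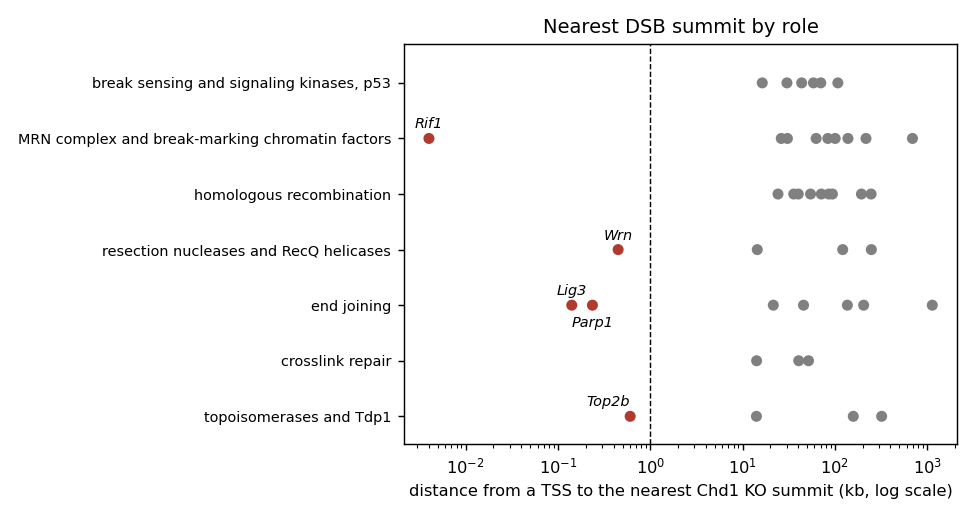
Distance from a TSS to the nearest Chd1 KO DSB summit for the 42 genes, by role, in kb on a log axis; each point is a gene, red points have a summit within 1 kb (dashed line). The 5 red points lie between 0.004 and 0.605 kb, and all others are at 14.1 kb or more.

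The runs of G and C under 4 of the 5 peaks are shown first, so that they can be compared with runs at genes without a peak further on. Each line gives 30 bases of mm9 along the strand of the gene, from 5′ to 3′, and capitals mark the longest stretch under the peak that holds no A or T.
Wrn: tCCCCGCCGCCGCCGCCGCCGCCGCGCGCt
Lig3: ggggtCGGGGCCGGGCCGCCGCCGGtccct
Parp1: aggtgcgaCGGGGCCGGGCCGGaggcgcag
Top2b: gtgagtGCGGCGCGGGCGGGCGCattgttc
They lie at chr8:34496421-34496450 on the minus strand for Wrn, chr11:82595009-82595038 on the plus strand for Lig3, chr1:182499283-182499312 on the plus strand for Parp1 and chr14:17198241-17198270 on the plus strand for Top2b. The runs are 28, 20, 14 and 17 bp long, in the same order. None is a stretch of a single base: the longest stretch of only G or only C in them is 4 bases, and they hold from 3 CpG steps in Parp1 to 9 in Wrn.

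Rif1 encodes a protein that acts with 53BP1 to limit the resection of broken ends and that also times DNA replication. It runs from 51928357 to 51977903 on chromosome 2 (plus strand) and has 8 annotated TSSs. Within 1 kb of the outermost TSS, the GC content was 58.5%. Its Chd1 KO peak of 630 bp, from 51928181 to 51928810, spans the TSS, and the summit at 51928353 lies 4 bp upstream of it. At the summit there were 31 extended reads (exact Poisson interval 21.1 to 44.0) over a local background of 4.04, the fold enrichment given by the authors was 6.35 and −log10 q was 12.9. It was the peak with the highest fold enrichment in the group, and 97.5% of the 3583 Chd1 KO peaks with a summit at a protein-coding TSS had a lower one. The peak holds 10 runs of at least 12 bp, on both sides of the TSS.

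Wrn encodes a RecQ helicase with an exonuclease domain, mutated in Werner syndrome in humans. It is 151 kb long, from 34344856 to 34495999 on chromosome 8 (minus strand), and its promoter had a GC content of 62.2%. Its peak of 633 bp, from 34496122 to 34496754, does not reach the gene: the summit at 34496447 lies 448 bp upstream of the only annotated Wrn TSS. There were 28 extended reads at the summit (interval 18.6 to 40.5), for a fold enrichment of 5.58 (−log10 q of 10.1). The summit also lies 350 bp from a TSS of Purg, a gene on the other strand that encodes a Pur family DNA-binding protein. The TSSs of the pair are 798 bp apart, and the peak sits between them, so it cannot be assigned to either gene. The printed run is centred 11.5 bp from the summit, and the peak holds 7 runs of at least 12 bp.

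Lig3 encodes the DNA ligase that works with Xrcc1 in single-strand break repair and alternative end joining. It has 11 annotated TSSs and runs from 82594610 to 82617776 on chromosome 11 (plus strand), with 54.7% GC at its promoter. The summit of its peak, at 82594846, lies 236 bp downstream of the outermost TSS and 141 bp downstream of the nearest, in an intron. At this summit there were 33 extended reads (interval 22.7 to 46.3), the highest number in the group, but over a background of 5.14, so that the fold enrichment was 5.54. The summit is also 302 bp from a TSS of Gm11423, a processed transcript. The printed run is 177.5 bp from the summit, and 7 runs of at least 12 bp lie under the peak, from 82594655 to 82595074.

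Parp1 encodes the poly(ADP-ribose) polymerase that binds DNA ends and nicks and recruits repair factors. It has 1 annotated TSS, runs from 182499086 to 182531384 on chromosome 1 (plus strand), and had 53.6% GC at its promoter, the lowest of the 5 genes. The summit of its peak of 214 bp, at 182499322, lies 236 bp downstream of the TSS in an intron. It had 20 extended reads (interval 12.2 to 30.9), a fold enrichment of 4.01 and −log10 q of 4.63. Among the peaks at protein-coding TSSs, 22.8% had a lower fold enrichment. The printed run of 14 bp is the only run of at least 12 bp under the peak and within 1 kb of the TSS, with its centre 24.5 bp from the summit. In all, 15.1% of the 3583 peaks at TSSs had no run longer than this.

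Top2b encodes topoisomerase 2β, the type II topoisomerase that cells express also outside of division. It runs from 17197693 to 17263301 on chromosome 14 (plus strand), and its promoter had the highest GC content of the group, 63.0%. The summit of its peak of 221 bp, at 17198298, lies 605 bp downstream of the TSS in an intron. Of the peaks at protein-coding TSSs, 5.33% had their summit more than 600 bp from the nearest TSS. There were 17 extended reads at the summit (interval 9.90 to 27.2), and the fold enrichment was 4.00 (−log10 q of 3.92). This was the lowest fold enrichment of the 5 peaks, next to that of Parp1. The longest run near a TSS of Top2b, 18 bp, lies upstream and outside the peak. Top2a, its paralog used in dividing cells, had a promoter GC content of 48.7%, no run over 9 bp near its TSSs, and its nearest summit at 158 kb.

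The order of the 5 peaks by fold enrichment was Rif1, Wrn, Lig3, Parp1 and Top2b. The Poisson intervals of the summit reads of all 5 overlap. They are intervals of the reads and not of the fold enrichment, which also depends on the background. Differences between the peaks were not tested, so nothing is read from this order. The peaks at Rif1, Wrn and Lig3 were 420 to 633 bp wide and held 7 to 10 runs of at least 12 bp, and those at Parp1 and Top2b were 214 and 221 bp wide and held 1 and 3. A wider peak has more room for runs, and this grouping of the peaks was made after their values were seen, so nothing is read from it. Over all peaks at protein-coding TSSs the median fold enrichment was 4.29 for the 780 peaks with a longest run of up to 15 bp and 4.78 for the 526 peaks with a run of 28 bp or more, with quartiles that overlap (3.88 to 4.75 and 4.30 to 5.45). Over the peaks at protein-coding TSSs the median GC content was 76.6%, with quartiles of 74.0% and 79.0%. The peaks at Rif1, Wrn, Lig3 and Top2b, at 76.0% to 78.4%, lay between these quartiles and that at Parp1, at 72.0%, below them.

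**Figure D2:**
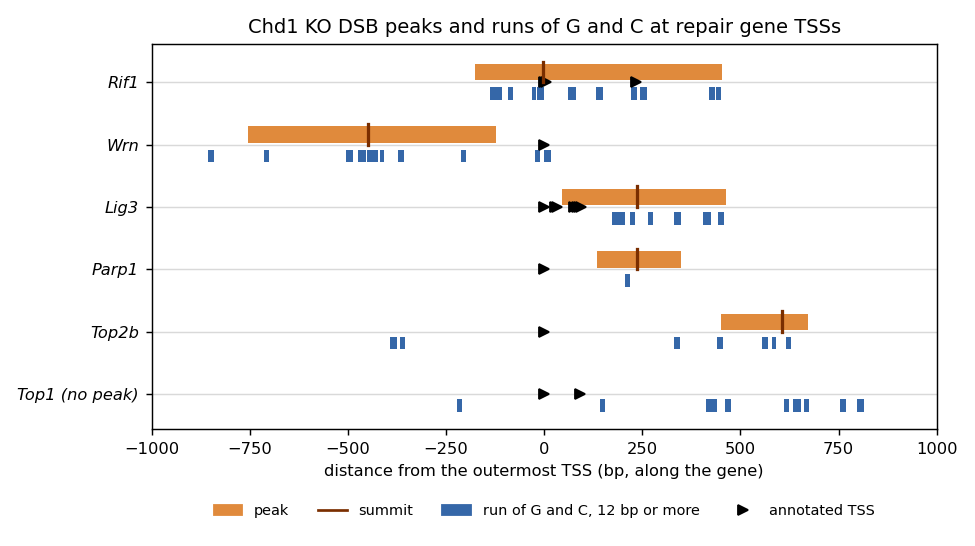
Chd1 KO peaks (orange), their summits (dark lines), runs of G and C of at least 12 bp (blue) and annotated TSSs (arrows) within 1 kb of the outermost TSS of 6 genes, with distance in bp along the gene on the x axis. Rif1 and Wrn have summits upstream of the TSS, Lig3, Parp1 and Top2b downstream, and Top1 has 10 runs and no peak.

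**Figure D3:**
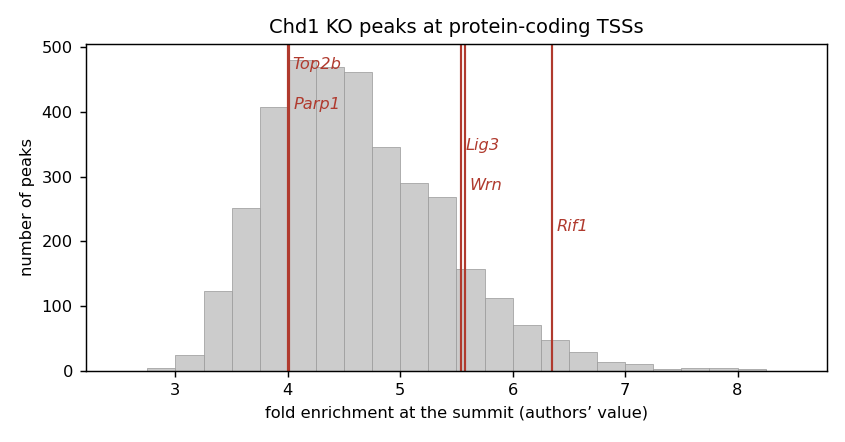
Histogram of the authors' fold enrichment at the summit (x axis) for the 3583 Chd1 KO peaks at protein-coding TSSs, with the number of peaks on the y axis; red lines mark the peaks at repair genes. Top2b and Parp1, at 4.00 and 4.01, lie in the lower part of the distribution and Rif1, at 6.35, in its upper tail.

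Away from TSSs, 2 of the 42 genes had a Chd1 KO summit in the gene body, more than 1 kb from every TSS of the gene: Xrcc5 and Rnf8. This is 4.76% (Wilson interval 1.32% to 15.8%), and among all protein-coding genes the share was 4.14%. A longer gene has more sequence in which a summit can lie. The 42 genes had a median length of 48.3 kb against 15.4 kb for all genes. The shares were not compared at equal length, so their closeness is not read as a result. In control cells 0 of the 42 genes had one, and the share among all protein-coding genes was 0.0313%. The runs under both peaks are shown in the same way, because they differ in kind.
Xrcc5: tCCCCGCCCCCCCCGCCCCCCCCCCCCCac
Rnf8: agtgcaGGCGCGCGGCCCCGGGGGtgcgag
They are at chr1:72399644-72399673 and chr17:29797720-29797749, both on the plus strand. Xrcc5 encodes Ku80, which with Ku70 clamps broken ends for end joining. Its summit, at 72399697, lies in an intron 45.7 kb downstream of the TSS, with 18 extended reads, a fold enrichment of 3.77 and no other TSS within 1 kb. The run of 27 bp there is almost pure C on the gene strand, with 13 C in a row and 2 CpG steps, and the peak around it has a GC content of only 49.2%. Rnf8 encodes a ubiquitin ligase that acts on chromatin next to breaks. Its summit, at 29797661, had 18 reads and a fold enrichment of 4.13 in sequence of 74.2% GC. It lies in an Rnf8 intron by the annotation, 26.2 kb from the nearest Rnf8 TSS, but also 91 bp from a TSS of Ftsjd2, a gene for an mRNA cap methyltransferase. The summit counted for Rnf8 is thus at the promoter of another gene.

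None of the 6 genes for signaling kinases and p53 had a peak. Among all protein-coding genes the shares were 15.9% at a TSS and 4.14% in the body. With 6 genes, a count of 0 cannot be told apart from these shares. Atm, Atr and Prkdc encode the large kinases at the top of the response, and Chek1 and Chek2 the checkpoint kinases below them. Atm had the most GC-rich promoter of these, 56.0%, and its nearest summit was at 58.6 kb. For Atr the promoter GC content was 53.9% and the nearest summit was 108 kb away. Prkdc, at 204 kb the longest gene of the group after Xrcc4, had a promoter GC content of 53.3% and a summit no closer than 43.6 kb. Chek1 and Chek2 had their nearest summits at 70.3 and 30.2 kb, and Trp53, the gene for p53, at 16.3 kb. Their longest runs at the TSSs were between 12 and 19 bp, the longest in Atr.

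Among the MRN complex and the factors that mark the break, only Rif1 had a peak at a TSS. Rad50, Mre11a and Nbn, which together form the complex that tethers and trims the ends, had promoters of 49.9%, 46.1% and 49.6% GC and nearest summits at 62.5, 217 and 692 kb. H2afx, which encodes H2A.X, is a gene of 1.36 kb with a promoter GC content of 57.9%, and its nearest summit was 101 kb away. Its longest run was 15 bp. Mdc1, which binds phosphorylated H2A.X, and Trp53bp1, which encodes 53BP1, had their nearest summits at 138 and 83.8 kb. For Rnf168, a ubiquitin ligase that acts after Rnf8, it was at 30.6 kb.

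None of the 9 genes for homologous recombination had a peak at a TSS or in the body. The shares among all protein-coding genes were 15.9% and 4.14%, and 9 genes are too few to tell 0 from them. Of the further genes of homologous recombination listed below, 4 of 20 had a peak at a TSS. Brca1 and its partner Bard1 had promoters of 51.9% and 53.5% GC and summits no closer than 40.1 and 85.9 kb. Brca2, which loads the recombinase on single-stranded DNA, and Palb2, which links it to Brca1, had promoters of 47.4% and 48.1% GC and nearest summits at 71.2 and 246 kb. Xrcc3 had the most GC-rich promoter of these genes, 58.8%, and its nearest summit was at 94.0 kb. The longest runs of the 9 genes were between 10 and 17 bp. The remaining 4, Rad51c, Rad52, Rad54l and Xrcc2, had summits no closer than 24.2 kb.

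Of the other genes of resection, end joining and crosslink repair, Exo1, Dna2 and Blm had nearest summits at 248, 14.4 and 121 kb. Polq, the polymerase of microhomology-mediated joining, had a promoter of 47.0% GC and its nearest summit at 136 kb. Xrcc4, the scaffold of Lig4, is the longest gene of the group, at 316 kb, and its nearest summit was also the farthest, at 1134 kb. Fanca, Fancd2 and Ercc1 had nearest summits between 14.2 and 51.7 kb.

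Lig4, Tdp1, Top1 and Xrcc6 had a run of at least 20 bp near a TSS and no peak, and their runs of 22 bp are shown for comparison with those under the peaks.
Lig4: gcgaGGCCCCGCGCCGCCCCCGCCGCtcct
Tdp1: gcatGCGCGGGCGCGCCGCGGGGCGGagtc
Top1: ccgaGCCCCGGCCCCCGGCCGCGCGCtctc
Xrcc6: ccctGCCCCCCCCCCCCCCCCCCCCCagag
They are at chr8:9977930-9977959 on the minus strand, chr12:101122701-101122730, chr2:160472253-160472282 and chr15:81859431-81859460, the last 3 on the plus strand. The runs of Lig4, Tdp1 and Top1 mix G and C with 5, 7 and 5 CpG steps, within the range of the runs printed for the 4 peaks. The run of Xrcc6, which encodes Ku70, has 21 C in a row and no CpG step and lies at an inner TSS, 41180.5 bp from the outermost. Lig4 encodes the ligase of classical end joining, Tdp1 an enzyme that removes stalled topoisomerase I from DNA, and Top1 topoisomerase I itself. Their nearest summits were 205, 321 and 14.1 kb away, and that of Xrcc6 21.5 kb.

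The promoters of the 42 genes had a median GC content of 51.0%, with quartiles of 48.6% and 53.5%, and all protein-coding genes had a median of 51.1% with wider quartiles of 45.7% and 55.9%. In narrower windows the median of the 42 genes was above that of all genes, with 56.7% against 54.7% within 500 bp of the TSS and 60.7% against 57.1% within 250 bp. The promoters of the 5 genes with a peak had between 53.6% and 63.0% GC, and those of the 37 others between 43.1% and 60.5%. The groups overlap, since 6 genes without a peak were at or above the lowest gene with one. The median observed-to-expected ratio of CpG within 1 kb of the outermost TSS was 0.684 for the 42 genes and 0.468 for all protein-coding genes. For the genes with a peak it was between 0.704 and 0.816, and 12 of the 37 others were at or above the lowest of these. In H2afx it was 0.838, the highest of the group, and in Xrcc6 0.146, the lowest, at an outermost TSS far from the inner ones.

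All protein-coding genes were divided into quintiles of promoter GC content, taken at the outermost TSS, whereas a peak could lie at any TSS. With the outermost TSS only, the same 5 repair genes had a peak, and 3209 of all protein-coding genes (14.3%) did. The shares by quintile count a peak at any TSS. In the lowest quintile 0 of 1 repair gene had a peak, in the next 0 of 12 and in the middle quintile 0 of 16. The shares among all protein-coding genes in these quintiles were 1.03%, 3.91% and 7.67%. From 53.1% to 57.1% GC it was 2 of 7 repair genes, Lig3 and Parp1, against 18.9% of all genes. From 57.2% GC upward it was 3 of 6, Rif1, Top2b and Wrn, against 48.4%. The Wilson intervals for these 2 counts, 8.22% to 64.1% and 18.8% to 81.2%, include the shares of all genes. The lower 3 quintiles hold 29 of the 42 genes and no peak. The genes in the upper 2 quintiles without a peak were Atm, Atr, Bard1, Prkdc, Rnf8, H2afx, Top1 and Xrcc3.

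**Figure D4:**
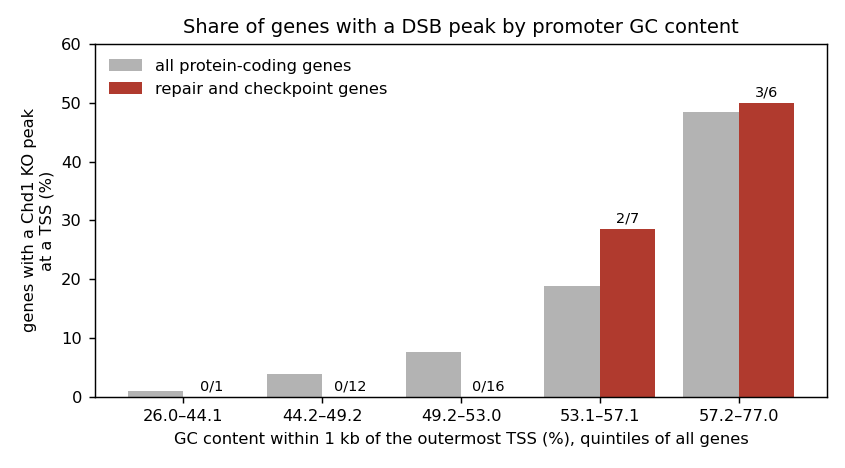
Share of genes with a Chd1 KO summit within 1 kb of any TSS (y axis, %) by quintile of GC content at the outermost TSS (x axis, %), for all protein-coding genes (grey bars) and the repair and checkpoint genes (red bars, with counts above). Both shares are highest in the top quintile, at 48.4% and 3 of 6 genes.

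The longest run of G and C near a TSS had a median of 15 bp in the 42 genes and 13 bp in all protein-coding genes. It was sought at every TSS, of which the 42 genes had a median of 4.5 against 2, so the sequence searched was not equal. At the outermost TSS only, the median of the 42 genes was 14 bp. Where the longest run near any TSS was 3 to 8 bp long, 0% of all genes and 0 of 1 repair gene had a peak. For 9 to 11 bp the values were 0.508% and 0 of 5 genes, and for 12 to 14 bp 4.98% and 1 of 14, Parp1. For 15 to 19 bp they were 22.2% and 1 of 15, Top2b, and for 20 bp and more 54.9% and 3 of 7, Lig3, Rif1 and Wrn. Between 15 and 19 bp the repair genes thus lay below all genes in share, though with an interval from 1.19% to 29.8% that includes the share of all genes.

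The number of runs of at least 12 bp within 1 kb of the outermost TSS was added after the values were seen. It was 10 in Rif1 and Wrn, 7 in Lig3 and Top2b and 1 in Parp1. Among the 37 genes without a peak it was 10 in Top1, 4 in Tdp1 and between 0 and 3 in the other 35. Of the 5 genes with 6 or more runs, 4 had a peak, and of the 36 genes with at most 3 runs, Parp1 alone had one. Among all protein-coding genes the share with a peak was 2.56% with 0 or 1 run, 15.3% with 2 or 3 runs, 38.0% with 4 or 5, 59.8% with 6 or 7 and 78.8% with 8 or more. In the group, Top1 alone had 8 or more runs and no peak, and Parp1 alone had 0 or 1 run and a peak. As the number of runs was added after the values were seen, no rule is drawn from it. The promoter of Top1 has a GC content of 60.5% and 10 runs, most of them downstream of the TSS, and no summit closer than 14.1 kb.

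**Figure D5:**
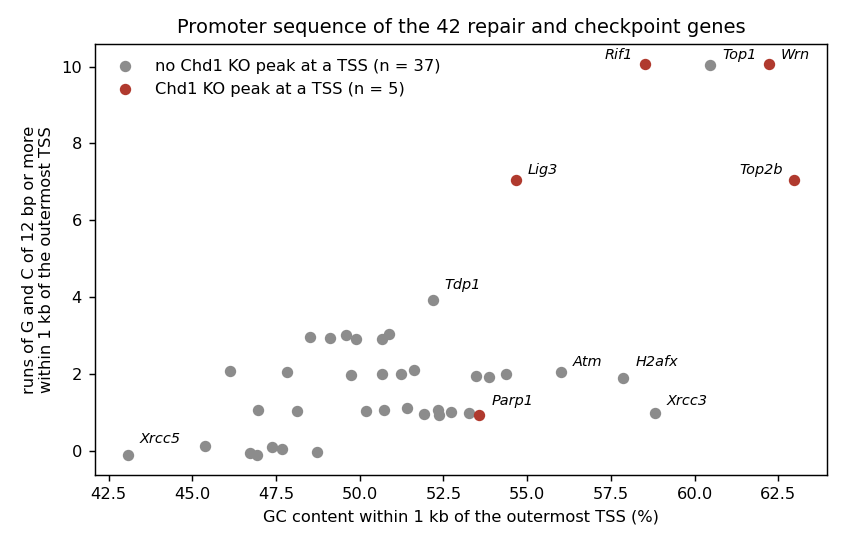
GC content within 1 kb of the outermost TSS (x axis, %) against the number of runs of G and C of at least 12 bp in the same window (y axis, with a small random shift so that points do not hide each other) for the 42 genes, with and without a Chd1 KO peak at a TSS. The genes with a peak are at 7 or 10 runs except Parp1, at 1 run.

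The 42 genes are long, with a median annotated length of 48.3 kb against 15.4 kb for all protein-coding genes. Among them, length did not separate the genes with a peak: these were between 23.2 and 151 kb long, and 28 of the 37 others were at least as long as the shortest of them. In the lower quintiles of gene length, from the shortest upward, 4.45%, 8.47% and 13.1% of all genes had a peak, and 0 of 1, 0 of 1 and 0 of 7 repair genes did. In the next quintile, 22.8 to 54.6 kb, the share was 21.6% of all genes and 3 of 16 repair genes, and in the longest 31.9% and 2 of 17. Of the 4 longest genes in the group, Xrcc4, Prkdc and Atm had no peak and Wrn had one. Lengths depend on which transcripts are annotated: the protein-coding transcripts of Xrcc4 averaged 98.4 kb.

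Many of these genes share their promoter with a neighbor. With another protein-coding TSS on the other strand within 1 kb upstream, 14 of the 42 genes (33.3%, Wilson interval 21.0% to 48.4%) were arranged head to head, against 10.3% of all protein-coding genes. Any annotated TSS of a gene could count, and the 42 genes had a median of 4.5 TSSs against 2 for all genes. The shares were not compared at equal numbers of TSSs. The distance was 21 bp between Lig4 and Abhd13, 41 bp between Xrcc4 and Tmem167, 44 bp between Fancd2 and Tmem111, 104 bp between Trp53 and Wrap53, 194 bp between Brca1 and Nbr1, 307 bp between Atm and Npat and 466 bp between Prkdc and Mcm4. The other pairs were Chek2 with Hscb, Palb2 with Dctn5, Rad51c with Tex14, Rad54l with Pomgnt1, Xrcc3 with Zfyve21 and Xrcc6 with Pppde2, beside Wrn with Purg. A peak was present at 1 of these 14 genes, Wrn, whose partner is the most distant, whereas 19.4% of all head-to-head genes had one. Of the 28 other repair genes 4 had a peak, against 15.5% of all other genes. The interval for 1 of 14 reaches from 1.27% to 31.5% and includes the share of all head-to-head genes.

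A G-quadruplex motif, 4 stretches of at least 3 G with 1 to 7 bases between them, on either strand, was found within 1 kb of the outermost TSS in 25 of the 42 genes (59.5%) and in 55.2% of all protein-coding genes. Such motifs overlap with runs of G and C. In the group it was present in 4 of the 5 genes with a peak, all but Lig3, and in 21 of the 37 others. Of the peaks at TSSs, those of Rif1, Wrn and Top2b held the motif, and so did the peaks in the bodies of Xrcc5 and Rnf8. The share of all Chd1 KO peaks that hold it is not given here, so nothing is read from these counts.

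Of a further list of genes of these pathways, 71 were found in the annotation, and 15 of them (21.1%, Wilson interval 13.2% to 32.0%) had a Chd1 KO summit within 1 kb of a TSS. The interval includes the share of all protein-coding genes given above. None had a control summit at a TSS (a count of 0 allows up to 4.23%). Signaling, the largest of the 5 classes in this list, had 8 of 25 genes with a peak (32%, Wilson interval 17.2% to 51.6%). This interval lies above the share of all protein-coding genes, but the class is 1 of 5 looked at, its genes were listed with earlier results known, and the difference was not tested. They included Uimc1, which brings Brca1 to ubiquitin at breaks, with a fold enrichment of 6.30, Timeless, a replication fork protection factor, with 5.36, Topbp1, the activator of Atr, with 4.88, and Trim28, which encodes Kap1, with 3.88. The others were the cell-cycle kinase gene Wee1, the phosphatase gene Cdc25a, Paxip1 and Usp28. In homologous recombination 4 of 20 had a peak, Rad54b, Shfm1, Recql and Rmi1, in crosslink repair 2 of 11, Usp1 and Fancf, and among genes of topoisomerases and SMC proteins 1 of 5, Smc5. None of 10 further genes for end joining had one (Wilson interval 0% to 27.8%, which includes the share of all protein-coding genes). Head-to-head arrangements were about as common, in 23 of the 71 genes (32.4%). One gene, Rad51l3, had a summit in its body.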

How the data were processed

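DSB-seq libraries of Chd1 KO and control ES cells, 2 replicates each, were analyzed as the peak lists that the authors deposited. Per the methods of the study and the labels, reads were aligned with Bowtie2 to mm9, filtered for mapping quality and duplicates, combined over replicates and passed to MACS2 (q-value below 0.05), and blacklisted peaks were dropped. The deposited columns used are the fold enrichment (a ratio within the combined reads of a genotype), the −log10 p-value, the q-value on the same −log10 scale and the summit offset. The deposited score column repeats the q-value and was not used. The MACS2 options listed in the methods of the study name no input or control library. No correction for effects of GC content on sequencing was made here. The ChIP-seq libraries were not analyzed here.

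A peak was placed at its summit. All TSSs of a gene were used, from GENCODE M1, whose build is that of the peaks. GC content and the number of runs were taken within 1 kb of the outermost TSS and the longest run within 1 kb of any TSS. Extended reads at a summit (each read extended to 200 bp) were recovered from the fold enrichment and the p-value, and matched the p-value to within 1.35e-04. Depth was computed from the lowest background with a genome size of 1870000000. Shares have Wilson intervals, and a count of 0 is given the limit of 3 counts. The placing of summits at a TSS or in a body, the longest-run search and the recovery of reads were tested on simulated data. The other steps were not.

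The sequence of the run at Rif1 is not reported here. The members and lists were chosen with earlier results of these data known. The naming rule took all genes of the group with a peak, of the others the 3 with the highest GC content, the 3 with the longest runs and the 3 longest, those with a summit 1 to 5 kb from a TSS, and genes sharing a peak. The remaining genes of the group fall outside this rule and were named, after their values were seen, to account for every gene. Of 78 symbols in the further list, some older and newer names of 1 gene, 71 matched, and Rad54b, with several entries, was used once. Alternatives changed the cutoff, the window, the position of a peak, the TSSs and the definitions of promoter and length. Python 3.11.15, NumPy 2.4.6, SciPy 1.17.1, pandas 2.3.3, pysam 0.24.0, samtools 1.23.1 and Matplotlib 3.10.9 were used.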

Additional observations from a re-analysis of the deposited data

How the results depend on the processing

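The count of repair genes with a Chd1 KO summit at a TSS was 4 or 5 under 10 of 11 alternatives, and its share lay below that of all protein-coding genes in all 11. The alternatives recount the same 42 genes in the same list, so they do not add evidence for a lower share. The main interval, 5.19% to 25.0%, includes the share of all genes. With the study's own window, reaching 1 kb upstream but only 100 bp downstream, 2 genes remained, Rif1 and Wrn, and 2302 of all protein-coding genes, since the summits of Lig3, Parp1 and Top2b lie farther downstream. The window of 500 bp lost Top2b. A cutoff set at the weakest control peak's p-value was chosen after seeing the data and kept all 5 genes, as did both stricter q-value cutoffs and a fold enrichment of at least 4, at which Parp1 and Top2b lie. In gene bodies a fold enrichment of at least 4 left 1 gene, Rnf8, and the whole gene with the TSS window included gave 5. No alternative gave a control summit. The median promoter GC content of the 42 genes was 56.7% within 500 bp of the TSS (all protein-coding genes 54.7%) and 60.7% within 250 bp (57.1%), and the median length 28.6 kb as the mean of the protein-coding transcripts. No paired analysis was possible because the peak lists used here each merge both replicates, and for the same reason no replicate was left out. The separate libraries were not analyzed here. The weakest Chd1 KO summit past the authors' cutoff had 13 reads, and weaker sites are not in the lists. The effect of depth was not tested.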
